A study of Mus musculus with 6 samples.

Results

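Among the genes counted in 4T1 cells, 50 genes of the TGF-beta, BMP and activin pathways were examined across the comparison of P3FI-90 with DMSO. They were picked by symbol, as named genes of the table that are ligands, ligand-binding proteins, receptors, SMADs, SMAD regulators or target genes of these pathways, and they are 50 of the 22105 named genes. 4T1 is an established mouse mammary carcinoma line used as a model of triple-negative breast cancer, so both groups model 1 tumor cell line in culture. The control group received DMSO, the vehicle, and the treated group received P3FI-90, an inhibitor of the histone demethylase KDM3B, at 10 µM. Both were exposed for 24 h, no genetic change is labelled for either group, and each group has 3 mRNA libraries. The labels do not say whether the 3 libraries of a group came from separate cultures, so p-values measure the spread between these libraries, which may be technical. Means are given ± SD over the 3 libraries of a group.

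TGF-beta, activins and BMPs are secreted dimers that bring together type II and type I serine/threonine kinase receptors, and the type I receptor then phosphorylates receptor-regulated SMAD proteins. TGF-beta and activin signal mainly through SMAD2 and SMAD3, and BMPs through SMAD1, SMAD5 and SMAD9, and both kinds join the common SMAD4 to enter the nucleus and act on target genes. In mammary epithelium TGF-beta is known as a brake on growth, and in advanced carcinoma as a driver of epithelial-mesenchymal transition and of immune suppression.

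Each library held between 31327094 and 37395732 counts on named genes, and 12288 genes were deep enough to be tested. The members took 0.300% to 0.315% of these counts in the DMSO libraries and 0.389% to 0.396% in the P3FI-90 libraries. Kdm3b mRNA, which encodes the protein that P3FI-90 inhibits, went from 2852 ± 67.4 to 3109 ± 55.7 normalized counts with a log2 fold change of 0.13 (SE 0.043, edgeR adjusted p = 0.0169), and an mRNA level does not check the activity of an enzyme inhibitor. The cells are labelled as epithelial cancer cells, and all 7 epithelial markers were counted in every library. All 7 were lower after P3FI-90, with summed normalized counts between 153300 and 161930 in DMSO and between 63597 and 66884 after P3FI-90. Among leukocyte markers, Adgre1 was at 0 in all libraries, 1 of 2 tested markers (Csf1r) was higher, and the sums were 30.6 to 62.6 against 131 to 139. Of 4 fibroblast markers, Lum was at 0 and the only tested one (Pdgfra) was lower, with sums of 1335 to 1413 against 910.4 to 1021, and of 3 endothelial markers the only tested one (Pecam1) was higher, with sums of 0 to 13.3 against 21.6 to 26.4. The part of these shifts in the results below was not tested, and in bulk RNA fewer cells of a type and less RNA per cell cannot be told apart.

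After P3FI-90, 4 of 6 tested BMP and activin receptors (66.7%) rose, against 39.9% of all tested genes. So did 3 of 4 (75%) in each of the extracellular antagonists, the inhibitory SMADs and SMURF ligases, and the SMAD corepressors. Nog, 1 of these antagonists, passed the filter on low counts only through the P3FI-90 libraries. Among TGF-beta receptors, and among activin and GDF ligands, 2 of 3 rose (66.7% in each). Of the receptor-regulated and common SMADs 3 of 6 rose (50%), against the same 39.9% of all tested genes. Inhbb, 1 of these ligands, and Smad9, 1 of these SMADs, also passed the filter only through the P3FI-90 libraries, so their rises say nothing of their roles. No latent TGF-beta binding protein rose of 4 tested, and neither Bmp7 nor Bmp1 did. The 3 TGF-beta ligands and the 5 target genes all changed, in both directions. Of the 50 members, Bmp2, Bmp4 and Grem1 had 0 counts in every library, which allows up to 0.0284 CPM over the DMSO libraries and 0.0288 over the P3FI-90 libraries. A further 3 members (Gdf15, Bmpr1b and Bambi) were too low to test, and 44 were tested with edgeR's quasi-likelihood test, adjusted by Benjamini-Hochberg over all 12288 genes. At an adjusted p under 0.05, 23 members (52.3%) rose, against 39.9% of all tested genes, and 11 (25%) fell, against 39.4%. Called members in either direction made up 77.3% of those tested, which is near the 79.3% of all genes. By a log2 fold change of at least 1, 11 members (25%) were higher, against 12.7% of all genes, and 3 (6.82%) were lower, against 10.6%. The median log2 fold change was 0.32 over the members and 0.013 over all genes, and the libraries of the groups did not overlap for 34 members (77.3%), against 81.2% of all genes. An exact two-sided permutation test of 3 against 3 libraries cannot go below p = 0.1, so separate groups are given as a description.

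These counts depend on which low members passed and on the scale. Inhbb, Nog and Smad9 reached the filter on low counts only through the P3FI-90 libraries, where they are high, so being tested favored a rise. All 3 are among the 11 members higher by at least 1. Requiring at least 10 counts in every library left them no value, and 8 members were then higher by at least 1. The share of all genes past 1 was not computed under that filter. Over the 41 members other than Inhbb, Nog and Smad9, 20 rose, 11 fell and the median was 0.13. The shares of all genes were not recomputed for genes that passed in both groups. With at least 10 counts in every library, 21 members rose and 11 fell, with a median of 0.15. Over all 11427 genes of that filter, 4618 rose and 4631 fell, with a median of −0.0020. Scaling to total counts in place of TMM moved the median of all genes from 0.013 to 0.23 and that of the members from 0.32 to 0.53. The members were longer than the tested genes, with a median longest transcript of 4478 bases against 3384, and removing a trend of fold change with transcript length and GC content brought their median to 0.0035 and that of all genes to −0.11. Of the 34 called members, 25 kept their call and direction under each of 16 alternatives that gave a value, and exceptions are named beside their values. Of the 14 members that differed by at least 1, all but Tgfbi did so. Of the 10 members that were not called, 9 were called under at least 1 alternative.

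**Figure D1:**
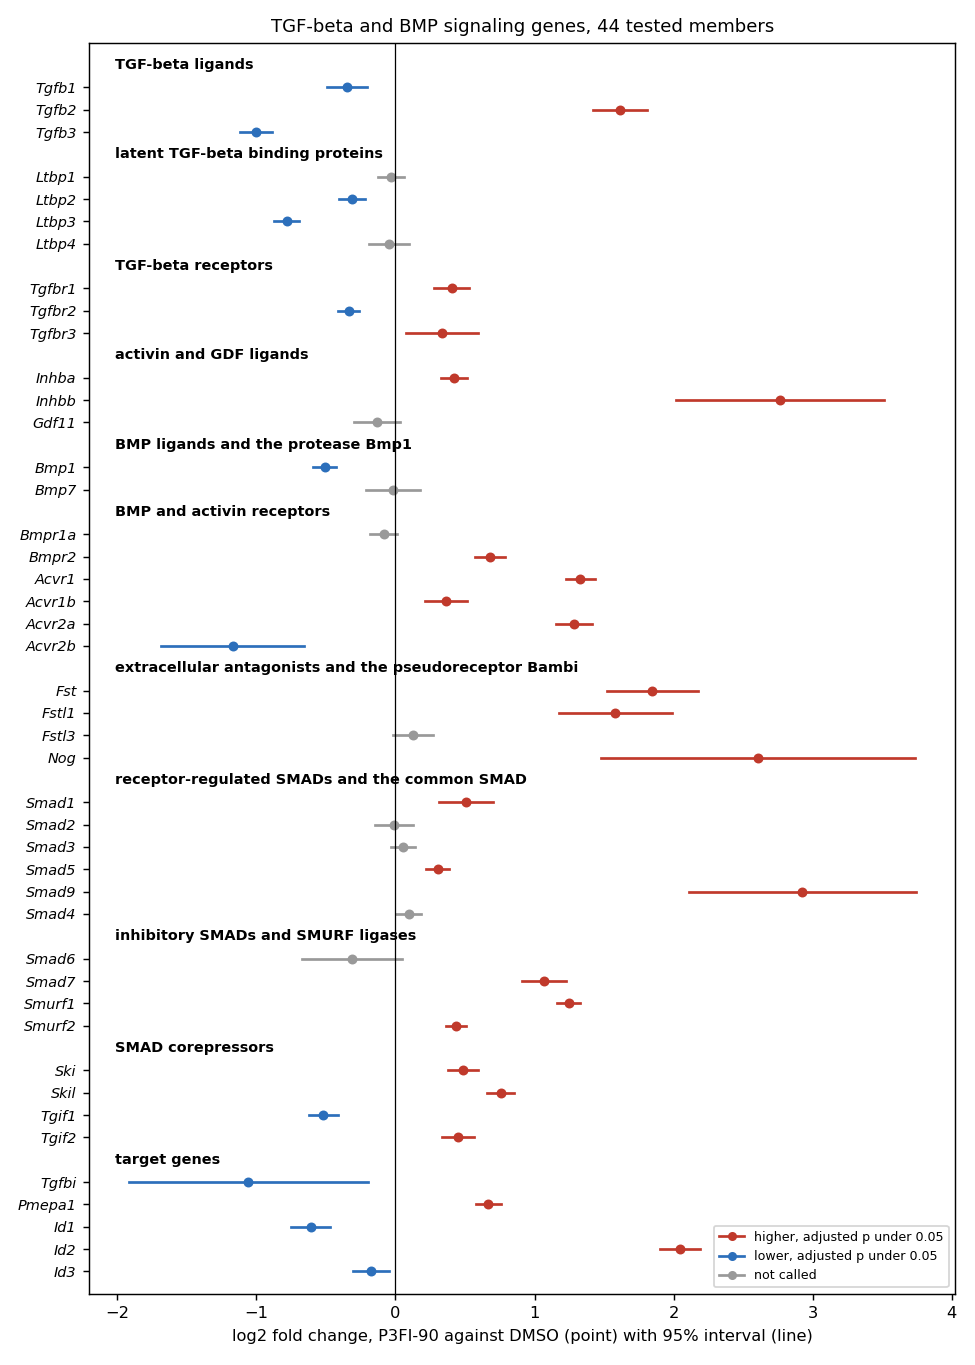
Log2 fold change of P3FI-90 against DMSO on the horizontal axis for the 44 tested members, grouped by role, with points for edgeR's estimates from 3 libraries per group and lines for 95% intervals. Red points are the 23 members that rose and blue points the 11 that fell at an adjusted p under 0.05, and grey points are the 10 members that were not called.

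Among the TGF-beta ligands, Tgfb2 rose and Tgfb1 and Tgfb3 fell. Normalized counts of Tgfb2 (ENSMUSG00000039239) were 309.7, 304 and 370.5 in the DMSO libraries and 995, 998 and 1028 in the P3FI-90 libraries. All 3 treated libraries lay above every control, and the log2 fold change was 1.62 (SE 0.089, 95% interval 1.42 to 1.81, edgeR adjusted p = 6.61e-10), a 3.07-fold rise. Tgfb3 was the ligand with the highest level per length in DMSO, at 53.7 ± 1.25 TPM (read counts divided by exon length and by the library's sum of such values, mean ± SD, n = 3), against 31.9 ± 3.21 for Tgfb1 and 4.85 ± 0.570 for Tgfb2. Normalized counts of Tgfb3 (ENSMUSG00000021253) were 2187, 2106 and 2066 in the DMSO libraries and 1066, 1025 and 1084 in the P3FI-90 libraries. No treated library reached the controls, and the log2 fold change was −1.002 (SE 0.052, 95% interval −1.11 to −0.89, edgeR adjusted p = 3.23e-10). Normalized counts of Tgfb1, the most studied of the 3 ligands, were 1919.7, 1673 and 2038 in the DMSO libraries and 1484, 1522 and 1427 in the P3FI-90 libraries. The groups did not overlap, and Tgfb1 changed by −0.35 (SE 0.067, edgeR adjusted p = 0.000283), a call that was lost with total counts as the scale (−0.13, edgeR adjusted p = 0.0834).

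The sequences upstream of the Tgfb1 and Tgfb2 start sites are shown because these paralogs changed in opposite directions. They are RefSeq sequence of build GRCm38.p6, given 5′ to 3′ on the gene's strand, and bases in any exon of GENCODE M21 were left out. Capitals mark CAGAC, the core of the SMAD box, which reads GTCTG on the other strand. They also mark the letters GGCGCC, a palindrome found in BMP response elements, and a related element, GGAGCC, which reads on the other strand as GGCTCC. Tgfb1 is shown from chr7:25686752-25687001, plus strand, and Tgfb2 from chr1:186706157-186706239, minus strand.
Tgfb1: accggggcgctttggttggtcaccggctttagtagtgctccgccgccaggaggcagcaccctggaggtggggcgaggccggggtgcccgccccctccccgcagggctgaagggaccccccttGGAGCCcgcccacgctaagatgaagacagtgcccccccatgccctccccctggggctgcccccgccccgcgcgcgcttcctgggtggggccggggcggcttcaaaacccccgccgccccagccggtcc
Tgfb2: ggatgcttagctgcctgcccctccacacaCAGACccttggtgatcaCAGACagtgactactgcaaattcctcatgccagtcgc
The Tgfb2 stretch of 83 bases held 2 CAGAC and the Tgfb1 stretch of 250 bases held 0 of them and 1 GGAGCC. The letters CAGAC, on either strand, were in 42.2% of all 32851 RefSeq windows of 250 upstream bases and in 23 of 49 windows (46.9%) of the 36 members that had one. GGCGCC was in 9.59% of all windows and 24.5% of the members' windows, and GGAGCC in 26.0% and 49.0%. Some windows of the same gene overlap, as for Ltbp4, so a site can be counted repeatedly. Both elements consist of G and C only, and the windows were not matched for GC content. The motifs TGATGCAA of ATF4 and TGAGTCA of AP-1, searched in the same way, were in 0.792% and 4.46% of all windows and in 0 of the 49 windows. A match is a description of the letters and not a bound site.

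Latent TGF-beta binding proteins hold TGF-beta precursors in the matrix, except that Ltbp2 is not known to bind the latent complex. Of the 4, Ltbp2 and Ltbp3 fell, and Ltbp1 and Ltbp4 were not called. Ltbp3 had the highest level per length, 85.6 ± 3.93 TPM in DMSO. Normalized counts of Ltbp3 were 8995, 8715 and 9477 in the DMSO libraries and 5051, 5399 and 5360.4 in the P3FI-90 libraries. The groups were far apart, with a log2 fold change of −0.78 (SE 0.041, 95% interval −0.87 to −0.69, edgeR adjusted p = 3.44e-10). Ltbp2 went from 5725 ± 319 to 4623 ± 137 normalized counts, with a log2 fold change of −0.31 (SE 0.044, edgeR adjusted p = 1.48e-05) that was not called with total counts (−0.095). Ltbp1 and Ltbp4 had log2 fold changes of −0.033 (SE 0.043) and −0.049 (SE 0.067), overlapping libraries and edgeR adjusted p of 0.493 and 0.505. Both depend on the scale, since Ltbp1 was called higher at 0.18 with total counts and lower at −0.34 with the length and GC trend removed, and Ltbp4 higher at 0.16 and lower at −0.15.

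The TGF-beta receptors are the type I receptor Tgfbr1, the type II receptor Tgfbr2 and the co-receptor betaglycan, Tgfbr3. Tgfbr2, the highest of the 3 at 68.3 ± 0.955 TPM in DMSO, fell. Normalized counts of Tgfbr2 were 6472, 6528 and 6581 in the DMSO libraries and 5241, 5000.2 and 5289 in the P3FI-90 libraries. The lowest control was above the highest treated library, and the log2 fold change was −0.33 (SE 0.035, 95% interval −0.41 to −0.26, edgeR adjusted p = 7.25e-07). Tgfbr1 rose from 2073 ± 122 to 2744 ± 159 normalized counts, by 0.40 (SE 0.059, edgeR adjusted p = 1.98e-05) on the log2 scale. Tgfbr3 rose from 284 ± 19.8 to 358 ± 34.5 normalized counts, by 0.34 (SE 0.12, edgeR adjusted p = 0.0190). With the trend with length and GC content removed, the log2 fold changes of Tgfbr1 and Tgfbr3 were 0.023 and 0.000079, and neither was called. The call of Tgfbr3 was also lost without DMSO replicate 1, DMSO replicate 3, P3FI-90 replicate 1 or P3FI-90 replicate 3, where its log2 fold change was 0.30, 0.32, 0.30 and 0.29.

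Inhba and Inhbb encode the beta subunits of activin A and activin B, and both rose. Inhba, the highest activin or GDF gene at 36.5 ± 0.454 TPM in DMSO, had normalized counts of 2726, 2758 and 2682 in the DMSO libraries and 3682, 3518 and 3719.6 in the P3FI-90 libraries. The groups were well separated, and the log2 fold change was 0.42 (SE 0.043, 95% interval 0.33 to 0.51, edgeR adjusted p = 5.59e-07), but it was −0.0025 with the length and GC trend removed. Inhbb was barely counted in the controls. Normalized counts of Inhbb (ENSMUSG00000037035) were 22.3, 12.0 and 8.16 in the DMSO libraries and 108, 102 and 82.3 in the P3FI-90 libraries. Every treated library was above every control, the log2 fold change was 2.76 (SE 0.35, 95% interval 2.01 to 3.51, edgeR adjusted p = 4.78e-06), and leaving out single libraries gave 2.47 to 3.27. Gdf11, a ligand of activin receptors, had a log2 fold change of −0.13 (SE 0.076, edgeR adjusted p = 0.123), with overlapping libraries, and was called lower at −0.23 with the length and GC trend removed. Gdf15, a stress-induced member of the superfamily, had counts of 0, 0 and 4 in the DMSO libraries and 0, 0 and 0 in the P3FI-90 libraries. All counts of Gdf15 came from 1 control library, too few to test or to give a direction.

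Of the BMP ligands on the list, Bmp2 and Bmp4 had no counts and Bmp7 was the only one that could be tested. Means of Bmp7 were 861 ± 56.3 to 850.4 ± 104 from DMSO to P3FI-90, and its change was −0.018 on the log2 scale (95% interval −0.21 to 0.18, edgeR adjusted p = 0.864), and its sign turned under 4 alternatives. Bmp1 is not a BMP ligand but a secreted metalloprotease that cleaves procollagens and the BMP antagonist chordin. It was the highest of this group at 136 ± 6.15 TPM in DMSO. Normalized counts of Bmp1 were 14655, 13370.0 and 14304 in the DMSO libraries and 9671, 10142 and 9949.9 in the P3FI-90 libraries. All 3 treated libraries were below the controls, with a log2 fold change of −0.51 (SE 0.038, 95% interval −0.59 to −0.43, edgeR adjusted p = 1.86e-08).

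Of 7 BMP and activin receptors, 6 were tested, 4 rose and 1 fell. The rises were in the type I receptors Acvr1 (ALK2) and Acvr1b (ALK4) and the type II receptors Bmpr2 and Acvr2a, and the fall was in Acvr2b, the close paralog of Acvr2a. Normalized counts of Acvr1 (ENSMUSG00000026836) were 1166, 1137 and 1103 in the DMSO libraries and 2860.5, 2888 and 2807 in the P3FI-90 libraries. The spread within each group was small beside the difference, and the log2 fold change was 1.33 (SE 0.049, 95% interval 1.22 to 1.43, edgeR adjusted p = 9.5e-12), 2.51-fold. Normalized counts of Acvr2a (ENSMUSG00000052155) were 756, 733 and 776 in the DMSO libraries and 1796, 1775 and 1941 in the P3FI-90 libraries. Again no treated library came near the controls, with a log2 fold change of 1.28 (SE 0.060, 95% interval 1.15 to 1.41, edgeR adjusted p = 1.13e-10). Acvr2a exons overlap those of Orc4, and reads of the overlap cannot be assigned without a stated strand setting. Normalized counts of Acvr2b (ENSMUSG00000061393) were 149.8, 163 and 160.2 in the DMSO libraries and 55.2, 97.1 and 56.8 in the P3FI-90 libraries. P3FI-90 replicate 2 lay above the other treated libraries but below all controls, and the log2 fold change of −1.17 (SE 0.24, 95% interval −1.68 to −0.66, edgeR adjusted p = 0.000443) became −1.49 without it.

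The upstream sequences of the Acvr2 paralogs are shown because the genes moved in opposite directions, with capitals as above. Acvr2a is shown from chr2:48813859-48814108, plus strand, and Acvr2b from chr9:119401928-119402117, plus strand.
Acvr2a: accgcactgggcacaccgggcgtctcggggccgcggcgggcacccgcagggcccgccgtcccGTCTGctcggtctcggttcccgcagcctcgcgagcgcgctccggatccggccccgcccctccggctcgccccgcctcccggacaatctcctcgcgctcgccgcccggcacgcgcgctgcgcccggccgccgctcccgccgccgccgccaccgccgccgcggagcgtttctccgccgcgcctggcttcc
Acvr2b: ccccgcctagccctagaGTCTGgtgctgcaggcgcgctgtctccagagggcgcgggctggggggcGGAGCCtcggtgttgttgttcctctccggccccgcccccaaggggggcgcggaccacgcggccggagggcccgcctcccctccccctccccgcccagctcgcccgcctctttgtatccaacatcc
Each stretch held 1 SMAD box core, read as GTCTG, and the Acvr2b stretch also held 1 GGAGCC. Over all 250 upstream bases, GGAGCC on either strand was found 3 times for Acvr2b and 0 times for Acvr2a. Of the 250 bases upstream of each start, of which fewer are shown for Acvr2b, GC made up 82.0% for Acvr2a and 72.8% for Acvr2b.

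Bmpr2, the BMP type II receptor, rose from 2489.8 ± 151 to 3986 ± 78.1 normalized counts, by 0.68 (SE 0.050, edgeR adjusted p = 1.35e-08), but its log2 fold change was −0.035 with the length and GC trend removed. Acvr1b, a type I receptor for activin, rose from 722 ± 43.5 to 930.5 ± 17.9 normalized counts, by 0.36 (SE 0.071, edgeR adjusted p = 0.000307). Bmpr1a, a BMP type I receptor, had the highest level per length of these receptors, 80.4 ± 5.50 TPM in DMSO. Normalized counts of Bmpr1a were 5536, 6095 and 6248 in the DMSO libraries and 5576, 5449.8 and 5827 in the P3FI-90 libraries. The groups overlapped, and the log2 fold change of −0.085 (SE 0.046, 95% interval −0.18 to 0.014, edgeR adjusted p = 0.104) was not called. Bmpr1a was called higher at 0.13 with total counts, and lower at −0.48 with the length and GC trend removed, at −0.12 with upper quartile scaling, at −0.14 without DMSO replicate 1 and at −0.12 without P3FI-90 replicate 3. Bmpr1b had too few counts to test, 5, 0 and 0 in the DMSO libraries and 10, 9 and 9 in the P3FI-90 libraries, which is more in each treated library than in any control.

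Of 6 extracellular antagonists, counting the pseudoreceptor Bambi, 4 were tested and 3 rose, each by more than 1 on the log2 scale, and the BMP antagonist gremlin, Grem1, had no counts. Follistatin, Fst, binds and neutralizes activins. Normalized counts of Fst (ENSMUSG00000021765) were 76.9, 92.7 and 85.7 in the DMSO libraries and 291, 325 and 303 in the P3FI-90 libraries. The lowest treated library was above the highest control, and the log2 fold change was 1.85 (SE 0.15, 95% interval 1.52 to 2.18, edgeR adjusted p = 5.29e-08), 3.60-fold. Fstl1 is a secreted follistatin-like glycoprotein that is known to bind BMPs. Normalized counts of Fstl1 (ENSMUSG00000022816) were 68.8, 84.3 and 64.3 in the DMSO libraries and 211, 194 and 245 in the P3FI-90 libraries. The groups did not overlap, and the log2 fold change was 1.58 (SE 0.19, 95% interval 1.18 to 1.99, edgeR adjusted p = 2.53e-06). Nog, noggin, is a secreted BMP antagonist. Normalized counts of Nog (ENSMUSG00000048616) were 6.07, 2.41 and 23.5 in the DMSO libraries and 46.8, 75.5 and 79.3 in the P3FI-90 libraries. DMSO replicate 3 was the highest control, and still below each treated library. The log2 fold change was 2.61 (SE 0.52, 95% interval 1.48 to 3.74, edgeR adjusted p = 0.000401), and it was 3.90 without that control. Fstl3, a further activin-binding protein, had the highest level of the group, 36.6 ± 1.45 TPM in DMSO. Normalized counts of Fstl3 were 1099, 1016 and 1019.6 in the DMSO libraries and 1084, 1219 and 1119.7 in the P3FI-90 libraries. These overlapped, and the log2 fold change of 0.13 (SE 0.067, 95% interval −0.017 to 0.27, edgeR adjusted p = 0.0958) was not called, though Fstl3 was called higher with total counts (0.34) and with the length and GC trend removed (0.26). Fstl3 exons overlap those of Prss57. Bambi, which lacks a kinase domain and blocks signaling, had counts of 0, 5 and 0 in the DMSO libraries and 5, 11 and 8 in the P3FI-90 libraries, too few to test.

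**Figure D2:**
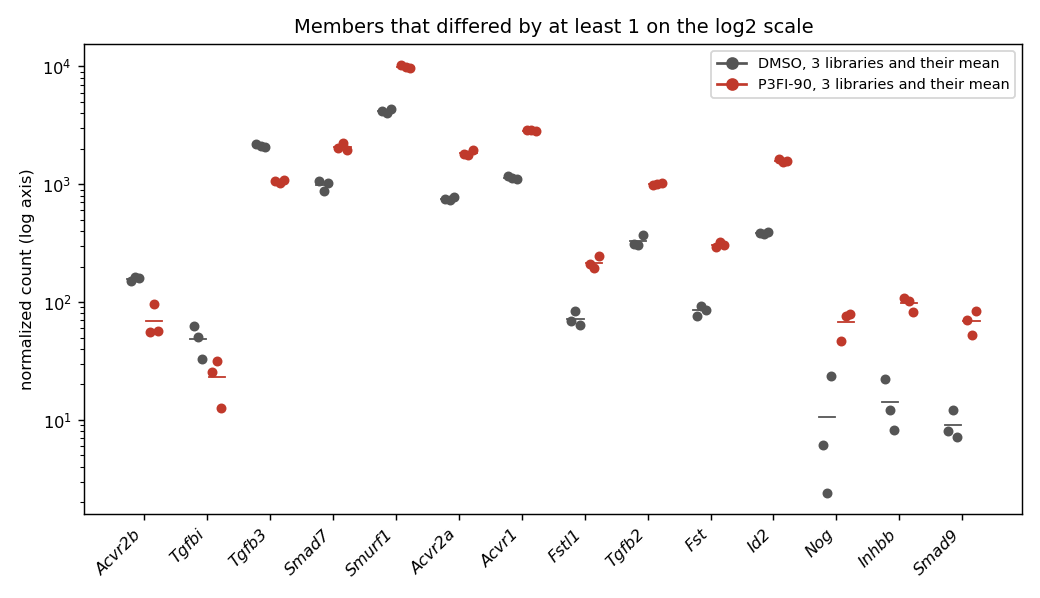
Normalized counts on a log axis for the 14 called members whose log2 fold change was at least 1 in size, with 1 point per library (grey DMSO, red P3FI-90, 3 each) and a line at each group mean, ordered from the largest fall to the largest rise. The libraries of the groups do not overlap for any of the 14, and Nog, Inhbb and Smad9 had control means of 10.7, 14.2 and 9.09.

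Among the receptor-regulated SMADs, the 3 that BMP receptors phosphorylate, Smad1, Smad5 and Smad9, rose. Neither Smad2 nor Smad3, the substrates of TGF-beta and activin receptors, was called. Smad9 passed the filter on low counts only through the P3FI-90 libraries. Normalized counts of Smad9 (ENSMUSG00000027796) were 8.10, 12.0 and 7.14 in the DMSO libraries and 71.1, 53.0 and 83.3 in the P3FI-90 libraries. All treated libraries lay above the controls. Smad9 rose by a log2 fold change of 2.93 (SE 0.38, 95% interval 2.11 to 3.74, edgeR adjusted p = 6.3e-06), from a level of 0.145 TPM in DMSO that was the lowest among the 6 SMADs of this group. Smad1 went from 1054 ± 157 to 1503 ± 90.6 normalized counts, with a log2 fold change of 0.51 (SE 0.090, edgeR adjusted p = 0.000128). Smad5 went from 3451 ± 30.5 to 4259 ± 123, with a log2 fold change of 0.30 (SE 0.039, edgeR adjusted p = 6.01e-06). With the length and GC trend removed, Smad5 was called lower at −0.10 (edgeR adjusted p = 0.0194). Smad2 changed by −0.0094 (SE 0.064, edgeR adjusted p = 0.897) and Smad3 by 0.054 (SE 0.040, edgeR adjusted p = 0.230), with 95% intervals of −0.15 to 0.13 and −0.032 to 0.14. Both depend on the scale. Smad2 was called higher at 0.20 with total counts and lower at −0.50 with the length and GC trend removed. Smad3 was called higher at 0.27 and lower at −0.12 under the same settings. Whether the branches differ was not tested.

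Smad4, the common SMAD, had the highest level of the group, 109.5 ± 4.33 TPM in DMSO. Normalized counts of Smad4 were 4557, 4867 and 4809 in the DMSO libraries and 5204, 4777 and 5215 in the P3FI-90 libraries. The groups overlapped, and the log2 fold change was 0.095 (SE 0.043, 95% interval 0.0022 to 0.19, edgeR adjusted p = 0.0569), where the interval is not adjusted for the number of genes. It was called higher under 5 alternatives, among them total counts (0.31). The sequence upstream of Smad9 is shown because Smad9 was the SMAD of this group that rose by more than 1 on the log2 scale, from chr3:54755332-54755581, plus strand.
Smad9: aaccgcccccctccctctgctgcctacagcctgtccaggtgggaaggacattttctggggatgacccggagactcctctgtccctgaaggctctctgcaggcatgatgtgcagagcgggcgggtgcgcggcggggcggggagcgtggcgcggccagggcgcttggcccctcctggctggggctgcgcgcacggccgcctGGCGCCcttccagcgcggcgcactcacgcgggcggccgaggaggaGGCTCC
It held 0 SMAD box cores, 1 palindrome GGCGCC and 1 related element on the other strand, marked in capitals.

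Inhibitory SMADs and SMURF ubiquitin ligases dampen signaling, and Smad7, Smurf1 and Smurf2 rose. Smad7 blocks type I receptors and is itself known as a direct TGF-beta target. Normalized counts of Smad7 (ENSMUSG00000025880) were 1067, 883 and 1029.8 in the DMSO libraries and 2030.5, 2257 and 1970.0 in the P3FI-90 libraries. The treated libraries lay above all controls, and the log2 fold change was 1.07 (SE 0.074, 95% interval 0.91 to 1.23, edgeR adjusted p = 7.66e-09). Smurf1 marks SMADs and receptors for degradation. Normalized counts of Smurf1 (ENSMUSG00000038780) were 4186, 4054 and 4365 in the DMSO libraries and 10203, 9945 and 9744 in the P3FI-90 libraries. The groups were far apart, with a log2 fold change of 1.25 (SE 0.038, 95% interval 1.16 to 1.33, edgeR adjusted p = 1.37e-12). Smurf2 had the highest level here, 76.1 ± 1.18 TPM in DMSO. Normalized counts of Smurf2 were 5420.1, 5551 and 5453 in the DMSO libraries and 7352, 7339 and 7547 in the P3FI-90 libraries. These did not overlap either, with a log2 fold change of 0.44 (SE 0.033, 95% interval 0.37 to 0.51, edgeR adjusted p = 2.11e-08). Smad6, the inhibitory SMAD of the BMP branch, was not called, with means of 239 ± 39.4 to 193 ± 29.9 normalized counts from DMSO to P3FI-90 and a log2 fold change of −0.31 (SE 0.17, 95% interval −0.67 to 0.047, edgeR adjusted p = 0.101). It was called lower without DMSO replicate 2 (−0.43) or P3FI-90 replicate 2 (−0.44). The sequence upstream of Smurf1 is shown as that of the ligase with the larger rise, from chr5:144965848-144966080, minus strand.
Smurf1: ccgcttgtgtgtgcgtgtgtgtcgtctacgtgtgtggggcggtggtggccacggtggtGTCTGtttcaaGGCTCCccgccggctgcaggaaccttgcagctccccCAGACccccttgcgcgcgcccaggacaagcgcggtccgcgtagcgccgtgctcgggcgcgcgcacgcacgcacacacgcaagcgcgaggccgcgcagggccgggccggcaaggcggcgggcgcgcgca
It held 2 SMAD box cores, 1 in each orientation, and 1 GGCTCC.

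All 4 SMAD corepressors changed. Ski and Skil encode SKI and SnoN, which recruit histone deacetylases to SMAD complexes, and both rose. Ski went from 3029 ± 214 to 4250.2 ± 86.2 normalized counts, with a log2 fold change of 0.49 (SE 0.050, edgeR adjusted p = 5.52e-07). Skil went from 4476 ± 209.7 to 7564 ± 352, with a log2 fold change of 0.76 (SE 0.044, edgeR adjusted p = 1.22e-09). The homeobox corepressors Tgif1 and Tgif2 moved in opposite directions. Tgif1, the highest of the 4 at 48.5 ± 1.54 TPM in DMSO, had normalized counts of 3259.5, 3244 and 3053 in the DMSO libraries and 2265, 2172 and 2237 in the P3FI-90 libraries. No treated library reached the controls, with a log2 fold change of −0.52 (SE 0.047, 95% interval −0.62 to −0.42, edgeR adjusted p = 1.58e-07). Tgif2 rose from 1318 ± 23.5 to 1803 ± 78.5 normalized counts, by 0.45 (SE 0.053, edgeR adjusted p = 2.3e-06), and 18% of its 50-base transcript windows are shared with other genes, mostly the pseudogene Tgif2-ps2, so its value is uncertain where counting split such reads.

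Of the 5 target genes on the list, Id2 and Pmepa1 rose and Id1, Id3 and Tgfbi fell. Id proteins bind basic helix-loop-helix factors and keep them off DNA, and all 3 Id genes are textbook BMP targets. Normalized counts of Id2 (ENSMUSG00000020644) were 384, 376 and 396 in the DMSO libraries and 1649.7, 1536 and 1584 in the P3FI-90 libraries. The log2 fold change of Id2 was 2.04 (SE 0.067, 95% interval 1.90 to 2.19, edgeR adjusted p = 2.93e-12), 4.12-fold, and the groups were far apart. Id1, the highest target gene at 146 ± 6.83 TPM in DMSO, had normalized counts of 2064, 1872 and 1993 in the DMSO libraries and 1308, 1403 and 1175 in the P3FI-90 libraries. The highest treated library was below the lowest control, with a log2 fold change of −0.61 (SE 0.066, 95% interval −0.75 to −0.47, edgeR adjusted p = 9.86e-07). Id3 went from 2228 ± 11.0 to 1974 ± 160.4 normalized counts, with a log2 fold change of −0.18 (SE 0.059, edgeR adjusted p = 0.0141). The fall of Id3 was the least stable of the 3, since its sign turned to 0.039 with total counts and 0.027 with the length and GC trend removed, and the call was lost without P3FI-90 replicate 2 (−0.12).

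Pmepa1 encodes a membrane protein that is induced by TGF-beta and restrains it. It rose from 3776 ± 190.4 to 5996 ± 142 normalized counts, by 0.67 (SE 0.041, edgeR adjusted p = 2.37e-09). Tgfbi encodes a secreted matrix protein. Normalized counts of Tgfbi (ENSMUSG00000035493) were 62.7, 50.6 and 32.7 in the DMSO libraries and 25.3, 31.5 and 12.7 in the P3FI-90 libraries. The lowest control and the highest treated library were close, and the log2 fold change was −1.06 (SE 0.40, 95% interval −1.92 to −0.20, edgeR adjusted p = 0.0254). The call was lost with total counts (−0.85, edgeR adjusted p = 0.0651) and without DMSO replicate 1 (−0.83), DMSO replicate 2 (−1.04) or P3FI-90 replicate 3 (−0.78).

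**Figure D3:**
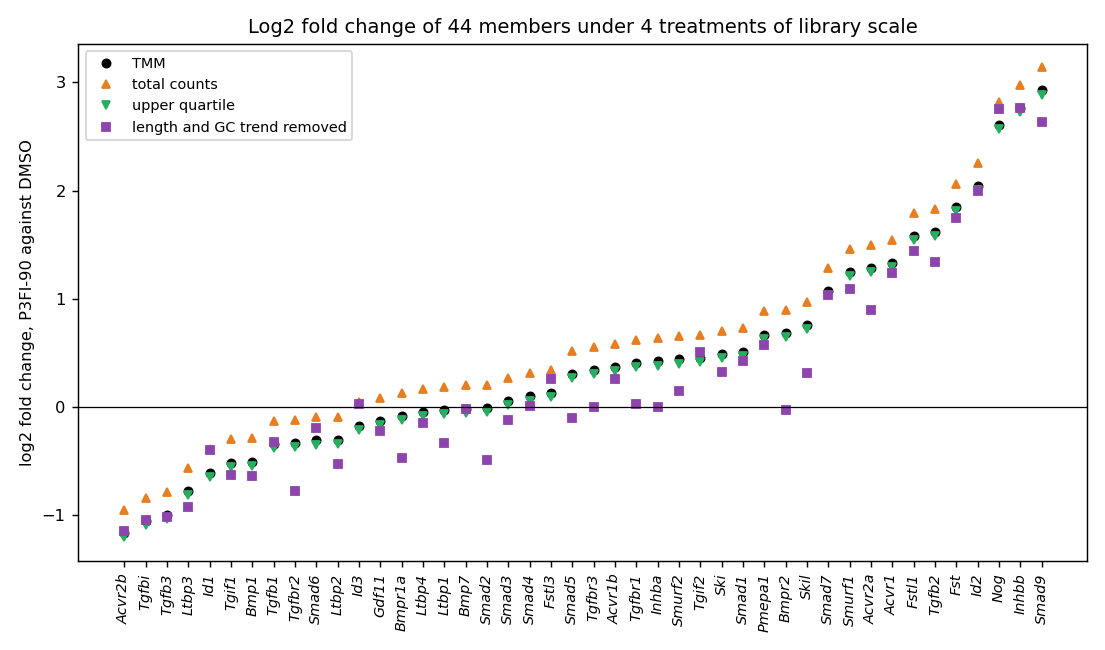
Log2 fold change of P3FI-90 against DMSO (vertical axis) for the 44 tested members, ordered by the value with TMM scaling, with 1 symbol for each of 4 treatments of library scale. Total counts (orange) lie above TMM (black) for every member, and with the length and GC trend removed (purple) the median of the members was 0.0035.

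Beyond the 50 members, 71 further genes of the pathways were read in the same test, 36 were deep enough and 13 had 0 counts in all libraries. Of the 36, 20 rose (55.6%), against 39.9% of all genes, and 13 fell (36.1%), against 39.4%, with a median log2 fold change of 0.24. By at least 1, 3 (Bmp6, Neo1 and Crebbp) were higher (8.33%), against 12.7%, and 1 (Dab2) was lower (2.78%), against 10.6%. Bmp6 passed the filter on low counts only through the P3FI-90 libraries and had to be higher there to be tested, and over the 34 genes that passed in both groups 19 rose and 13 fell. No share of all genes was computed for that narrower set. Calls in either direction made up 91.7%, against 79.3% of all genes. The largest rise with at least 50 normalized counts was in Neo1, the receptor for the BMP co-receptors of the RGM family, from 3643 ± 117 to 11634 ± 131 normalized counts and by 1.67 (SE 0.036). Next came the SMAD coactivators Crebbp, by 1.57 (SE 0.080), and Ep300, by 0.99 (SE 0.043), which are histone acetyltransferases, and the receptor-associated Tgfbrap1, by 0.96 (SE 0.058). Trim33, a ubiquitin ligase that acts on SMAD4, rose by 0.93 (SE 0.034). The largest falls were in the endocytic adaptor Dab2, from 1876 ± 23.4 to 813 ± 30.8 normalized counts with a log2 fold change of −1.21 (SE 0.056), and in Fbn1, the fibrillin that anchors latent complexes, with −0.85 (SE 0.26). The Fbn1 call was lost without DMSO replicate 3 (−0.63, edgeR adjusted p = 0.0634). Fkbp1a, which binds type I receptors and keeps them inactive, changed by −0.85 (SE 0.036), Thbs1, an activator of latent TGF-beta, by −0.58 (SE 0.032), and the SMAD phosphatase Ctdspl by −0.56 (SE 0.10). All 10 of these genes passed an edgeR adjusted p under 0.05.

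Genes commonly described as transcribed through SMADs did not move one way. Of 40 such genes outside the members, 34 were tested, 15 rose (44.1%), against 39.9% of all genes, and 12 fell (35.3%), against 39.4%, with 41.2% past 1 on the log2 scale in either direction against 23.3%. Of these, 6 (Acta2, Angptl4, Zeb1, Hey1, Hey2 and Dlx3) passed the filter on low counts only through the P3FI-90 libraries. Being tested thus favored a rise in them, and 5 of the 6 rose. Over the 28 that passed in both groups, 10 rose and 12 fell, the median log2 fold change was 0.021 and 32.1% were past 1. The shares of all genes given here still hold genes that passed through 1 group, and were not recomputed for those that passed in both. Of all targets tested, 28 are targets of TGF-beta, of which 11 rose and 12 fell. The largest rises with at least 50 normalized counts were in Angptl4, a secreted lipase inhibitor, by 3.89 (SE 0.28), the cytokine Il11, by 2.20 (SE 0.28), and Tagln, an actin-binding protein of smooth muscle, by 2.07 (SE 0.23). Klf10, a TGF-beta inducible zinc finger factor, went from 2333 ± 109.6 to 8542 ± 63.0 normalized counts, by 1.87 (SE 0.040), and Zeb2, a repressor of epithelial genes, from 889.6 ± 85.2 to 2931 ± 22.1, by 1.72 (SE 0.063). The largest falls were in the sphingosine kinase Sphk1, with a log2 fold change of −1.65 (SE 0.069), and the small GTPase Rhob, with −1.29 (SE 0.053). The matricellular gene Ccn2 (CTGF), one of the best known TGF-beta targets, had means of 6599 ± 332 to 3084 ± 136 from DMSO to P3FI-90, changing by −1.10 (SE 0.045) on the log2 scale, followed by Postn at −1.03 (SE 0.20) and Ccn1 at −0.83 (SE 0.041). All 10 passed an edgeR adjusted p under 0.05.

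Of the 10 BMP targets outside the members, 6 were tested and 4 rose (66.7%), against 39.9% of all genes, and these 4 are named after their values were seen. The BMP targets Id1, Id2 and Id3 are members and are not in this list, and of them Id2 rose (2.04) and Id1 (−0.61) and Id3 (−0.18) fell. Hey1, Hey2 and Dlx3 are among the genes that passed the filter on low counts only through the P3FI-90 libraries, so their calls say nothing of the list. Runx2 was the only rise among the other 3. Runx2, a bone transcription factor, went from 1314 ± 77.3 to 2933 ± 189 normalized counts, by 1.16 (SE 0.062, edgeR adjusted p = 4.41e-10). The Notch-related repressors Hey1 and Hey2 went from 17.3 ± 6.27 to 47.9 ± 10.3 and from 5.40 ± 2.12 to 46.9 ± 20.0 normalized counts, by 1.47 (SE 0.39) and 3.10 (SE 0.52) on the log2 scale. Dlx3, a homeobox factor, went from 3.36 ± 2.30 to 29.6 ± 8.05 normalized counts, by 3.14 (SE 0.58). The other tested BMP targets, Id4 and Alpl, had log2 fold changes of 0.86 (SE 0.38, edgeR adjusted p = 0.0530) and −0.75 (SE 0.43, edgeR adjusted p = 0.125).

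**Figure D4:**
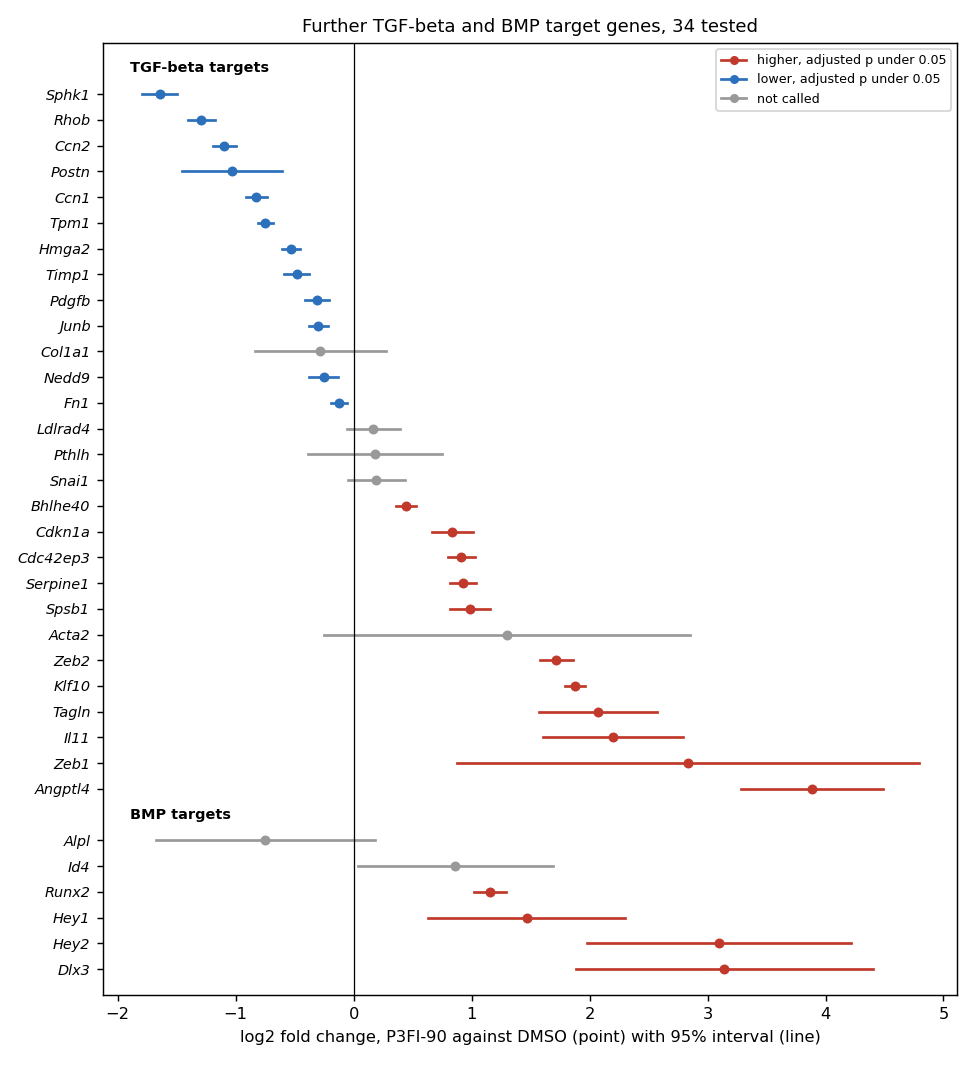
Log2 fold change of P3FI-90 against DMSO on the horizontal axis for the 34 tested TGF-beta and BMP target genes outside the members, with points for edgeR's estimates from 3 libraries per group and lines for 95% intervals. Of the 28 TGF-beta targets 11 (red) rose and 12 (blue) fell, and of the 6 BMP targets 4 rose, 3 of which passed the filter on low counts only through P3FI-90, with grey for genes not called.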

How the data were processed

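The authors deposited 1 table of counts per gene for the 6 libraries, whole numbers without normalization. The submitters' processing notes name CASAVA, HISAT2, StringTie and the build GRCm39, and the study tested these data with limma. Tool versions, the annotation, the counting tool, the strand setting and whether both mates of a pair were counted are not given in the sources used here. The 296 rows without a gene identifier (0.483% to 0.556% of the counts of a library) were left out, and some marker and overlap values are not reported here.

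Analyses were run in R 4.3.3. Genes passing filterByExpr were scaled by TMM in edgeR 4.0.16, and P3FI-90 was compared with DMSO by the quasi-likelihood test, two-sided, with Benjamini-Hochberg adjustment over 12288 genes. The common biological coefficient of variation was 0.0648. Normalized counts are counts at the mean effective library size. No block was used. The chi-square per gene was 5.47 to 8.50 for 2 libraries of a group, above counting noise, and 351 to 394 across groups.

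TPM used exon lengths of GENCODE M21, on GRCm38, and only orders levels in DMSO. Promoters are RefSeq windows of GRCm38.p6, matched by symbol. Values in every library are given for members past an adjusted p of 0.05 and a log2 fold change of 1, and for the highest TPM of each role, others being named as examples. Of the other lists, the 5 largest rises and falls with at least 50 normalized counts are named. The members, lists and rules were chosen with earlier results of these data known, and groups were taken from the labels.

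Alternatives were DESeq2 size factors, total counts and upper quartiles, a filter of 10 counts per library or none, other tests (DESeq2 1.42.0, limma-voom, and limma 3.58.1 on log2(CPM + 1)), a replicate block, and each library left out. Removing a spline trend (4 degrees of freedom) of counts on transcript length and GC content was added after the data were seen. Counts were simulated for this comparison with 200 of 12154 genes changed by 1 on the log2 scale. Of these 200, 175 were found, and 10.3% of calls were false, above the share that an adjusted p under 0.05 aims at. Far more genes were called in the data (79.3%), so the simulation does not measure the error of those calls.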

Additional observations from a re-analysis of the deposited data

How the results depend on the processing

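The number of members that fell, 11 with TMM, was 7 with total counts and 17 with the length and GC trend removed, and that of the other pathway genes, 13 with TMM, was 7 with total counts. Over all genes, 4841 of 12288 fell with TMM, 3641 of 12288 with total counts and 5553 of 12263 with the trend removed. The number of members that rose, 23 with TMM, was 30 with total counts and 19 with the trend removed. Over all genes, 4908, 6179 and 4161 rose under these 3 settings. The 3 members lower by at least 1 on the log2 scale became 0 with total counts and 0 with limma on log2(CPM + 1). With single libraries left out they were 1 to 3 (1 without DMSO replicate 1). Of these members Tgfb3 lay at the threshold. It was −1.002 with TMM, −0.99 with DESeq2 size factors, −0.79 with total counts and −0.98 with limma on log2(CPM + 1). The sign turned with total counts for Ltbp1 (0.18), Ltbp4 (0.16), Gdf11 (0.081), Bmp7 (0.20), Bmpr1a (0.13), Smad2 (0.20) and Id3 (0.039), and with the length and GC trend removed for Inhba (−0.0025), Bmpr2 (−0.035), Smad3 (−0.12), Smad5 (−0.10) and Id3 (0.027). Smad2 was 0.00031 with DESeq2 size factors, 0.0091 with at least 10 counts in every library and 0.00035 with DESeq2, and Bmp7 was 0.00096 with at least 10 counts. With single libraries left out, Smad2 ran from −0.072 to 0.050 and Bmp7 from −0.091 to 0.074. Except for Inhba, Bmpr2, Smad5 and Id3 these members were not called with TMM. The cause of these changes was not tested. At least 10 counts in every library left no value for Inhbb, Nog and Smad9. With the replicate number as a block 23 members rose and 11 fell, 20 and 13 of the other pathway genes and 15 and 12 of the SMAD targets. Over all 12288 genes, 4802 rose and 4722 fell with that block. The block changed no call of a member. Equal numbers are not stated to mark a shared origin, and the deviations of equally numbered libraries correlated by −0.021, 0.015 and 0.0049, so no pairing was assumed. With 3 libraries per group, members under about 50 normalized counts have wide intervals, and the rise of Nog ranged from 2.17 to 3.90 with single libraries left out.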
